A study of Homo sapiens with 8 samples.

Results

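The genes of RNA polymerase II and of the factors that carry it through elongation were followed in HepG2 cells, a human liver tumour line that keeps many hepatocyte features, treated for 4 h with the BET inhibitor JQ1, the BET inhibitor RVX-208 or vehicle. The set was fixed by symbol and held 39 genes: 11 subunits of the polymerase, 4 of NELF, 2 of DSIF, SUPT6H, 2 of FACT, 9 of the super elongation complex, 5 of the PAF complex, 2 of TFIIS and 3 for kinases of the polymerase tail. Of these, 38 had a probe set of their own among the 17845 genes tested, and NELFE is not analysed here. The groups were JQ1 at 500 nM (2 arrays), RVX-208 at 5000 nM (3 arrays) and the vehicle DMSO (3 arrays), all at a final DMSO concentration of 0.1%. JQ1 binds both bromodomains of the BET proteins, and RVX-208 (apabetalone) prefers the second. A further JQ1 sample of the stated design is not analysed here. Values are log2 signals of Affymetrix Human Gene 1.0 ST arrays as normalised by the authors. The labels do not say that samples of a group came from separate cultures, so p-values measure only the spread between these arrays, and the number of arrays limits the precision.

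RNA polymerase II starts at a promoter and often pauses a short way into the gene, held by NELF and DSIF. The kinase P-TEFb, brought in by the super elongation complex, phosphorylates these factors and the tail of the largest polymerase subunit, after which NELF leaves and the polymerase moves on. The PAF complex, SPT6 and FACT travel with it and handle chromatin, TFIIS rescues stalled polymerase, and CDK12 and CDK13 with cyclin K phosphorylate the tail further into the gene.

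The promoters of the 4 genes whose calls proved most stable are shown here, since 3 of these genes rose and 1 fell with JQ1. They are RefSeq sequences of GRCh38.p14, 300 bases each, running from 250 bases before to 50 after the annotated start, 5′ to 3′ on the strand of the gene. POLR2A lies at chr17:7484116-7484415 on the plus strand, CTR9 at chr11:10750996-10751295 on the plus strand, AFF4 at chr5:132963585-132963884 on the minus strand and NELFA at chr4:2008925-2009224 on the minus strand. Capitals mark the letters of 6 motifs searched on both strands: the TATA box (TATAAA), the E-box bound by MYC and its relatives (CACGTG), the GC box (GGGCGG), the CCAAT box (CCAAT), the core bound by ETS factors (CCGGAAG) and the centre of the NRF1 site (GCATGCG).
POLR2A: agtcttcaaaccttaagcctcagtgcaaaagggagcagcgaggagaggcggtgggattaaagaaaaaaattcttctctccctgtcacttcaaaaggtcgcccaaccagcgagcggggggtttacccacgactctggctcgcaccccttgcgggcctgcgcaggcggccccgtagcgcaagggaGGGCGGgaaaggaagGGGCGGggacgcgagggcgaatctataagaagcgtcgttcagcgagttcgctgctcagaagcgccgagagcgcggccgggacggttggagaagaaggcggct
CTR9: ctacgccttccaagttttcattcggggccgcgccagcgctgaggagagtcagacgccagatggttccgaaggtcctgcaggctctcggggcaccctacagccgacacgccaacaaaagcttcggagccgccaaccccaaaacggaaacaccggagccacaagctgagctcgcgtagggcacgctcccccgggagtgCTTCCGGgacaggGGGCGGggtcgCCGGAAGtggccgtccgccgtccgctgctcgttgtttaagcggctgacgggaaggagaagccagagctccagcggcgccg
AFF4: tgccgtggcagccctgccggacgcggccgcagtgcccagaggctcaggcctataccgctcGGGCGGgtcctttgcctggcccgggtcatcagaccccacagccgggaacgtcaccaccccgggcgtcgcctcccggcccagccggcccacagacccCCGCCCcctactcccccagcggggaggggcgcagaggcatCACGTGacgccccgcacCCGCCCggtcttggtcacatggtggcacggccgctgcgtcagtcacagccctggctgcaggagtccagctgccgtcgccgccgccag
NELFA: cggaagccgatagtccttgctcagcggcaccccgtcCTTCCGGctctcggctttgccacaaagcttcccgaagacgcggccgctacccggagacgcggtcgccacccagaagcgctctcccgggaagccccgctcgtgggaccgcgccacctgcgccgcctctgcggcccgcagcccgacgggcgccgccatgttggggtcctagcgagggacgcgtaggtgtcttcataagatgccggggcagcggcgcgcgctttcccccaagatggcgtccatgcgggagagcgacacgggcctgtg

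POLR2A held 2 GC boxes, CTR9 held 1 GC box and 2 ETS cores, AFF4 held 3 GC boxes and 1 E-box, and NELFA held 1 ETS core. With 1 promoter per gene, 32 of the 38 measured members were matched. The TATA box letters stood in 0 of these 32 promoters, against 9.03% of 13865 promoters of tested genes. The NRF1 letters stood in 5 (15.6%, against 5.06%), the ETS core in 10 (31.2%, against 14.6%), the GC box in 25 (78.1%, against 60.1%), the E-box in 3 (9.38%, against 8.89%) and the CCAAT box in 8 (25%, against 36.4%). The members' promoters had a median GC content of 66.2%, against 63% over all. These are counts of letters in a short window and show no binding.

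The median log2 signals of the 8 arrays lay between 7.265 and 7.31. Of 7 hepatocyte markers 6 were measured, at mean log2 signals from 10.57 for SERPINA1 to 13.48 for APOB, and 0 of them changed in either comparison with DMSO. On a log2 scale their summed signal was 15.26 and 15.29 in JQ1 arrays, 15.18 to 15.23 in RVX-208 arrays and 15.16 to 15.21 in DMSO arrays. Of 5 blood markers 4 were measured, with summed log2 signals of 10.66 to 10.70 in JQ1 arrays, 10.79 to 10.84 in RVX-208 arrays and 10.65 to 10.88 in DMSO arrays, and 4 of 4 endothelial markers summed to 8.59 to 8.67, 8.70 to 8.76 and 8.69 to 8.75 in JQ1, RVX-208 and DMSO arrays; 0 of both lists changed. Among the markers of blood, stroma and endothelium, PTPRC (CD45) lay at 3.47 and DCN at 3.41, while CD68, a lysosomal protein that is not confined to macrophages, reached 10.67. The 5 stromal genes summed to 8.87 and 8.90 with JQ1, 8.84 to 8.89 with RVX-208 and 9.05 to 9.10 with DMSO, with 1 gene, PDGFRB, lower in both comparisons with DMSO. Its part in the results was not tested. HEXIM1, the P-TEFb inhibitor that rises with BET inhibitors, stood at 11.08 and 11.19 in JQ1 arrays, 10.16, 10.09 and 10.14 in RVX-208 arrays and 9.68, 9.61 and 9.65 in DMSO arrays.

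JQ1 changed a few members strongly, with most of the measured machinery within a narrow band, much as over all genes. The standard deviation of log2 fold changes across genes was 0.256 for members and 0.256 for all genes. Changes of at least 0.4 log2 units, up or down, were seen in 4 of 38 members and in 1738 of 17845 genes. Against DMSO, POLR2A, CTR9, AFF4, RTF1 and SUPT4H1 rose, and NELFA and LEO1 fell. A gene counts as changed at a Benjamini-Hochberg adjusted p under 0.05 over all genes in limma's moderated test. The 7 changed genes were 18.4% of the 38 measured members, while 22.8% of all tested genes changed in that comparison (10.7% rose and 12.0% fell). In a bulk sample, fewer cells with a transcript and less of it per cell cannot be told apart. The members' median log2 fold change was 0.028, against -0.040 over all genes, and 81.6% of members lay within 0.2 log2 units of 0, against 68.0% of all genes. The 31 members that did not pass ran from -0.16 (MLLT1) to 0.20 (EAF2), and each of their 95% confidence intervals lay within 0.4 of 0. POLR2A, CTR9, AFF4 and NELFA passed in all 15 other settings tried. Centring arrays on housekeeping genes moved the median of all genes to -0.206 and gave 3 members higher and 15 lower, where 5.22% of all genes were higher and 42.8% lower, so that the sign of small differences depends on the scaling. Of the 10 housekeeping genes used for it, 2 had risen with JQ1 (B2M, and GUSB, which passed in 9 of 15 other settings). For 9 of these 10, both JQ1 arrays lay above all DMSO arrays, as they did for 21.3% of all genes. In the authors' deposited table, 4 members had an adjusted p under 0.05 in the joint F test of both compounds, POLR2A, CTR9, AFF4 and NELFA, where 20.8% of its probe sets did.

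**Figure D1:**
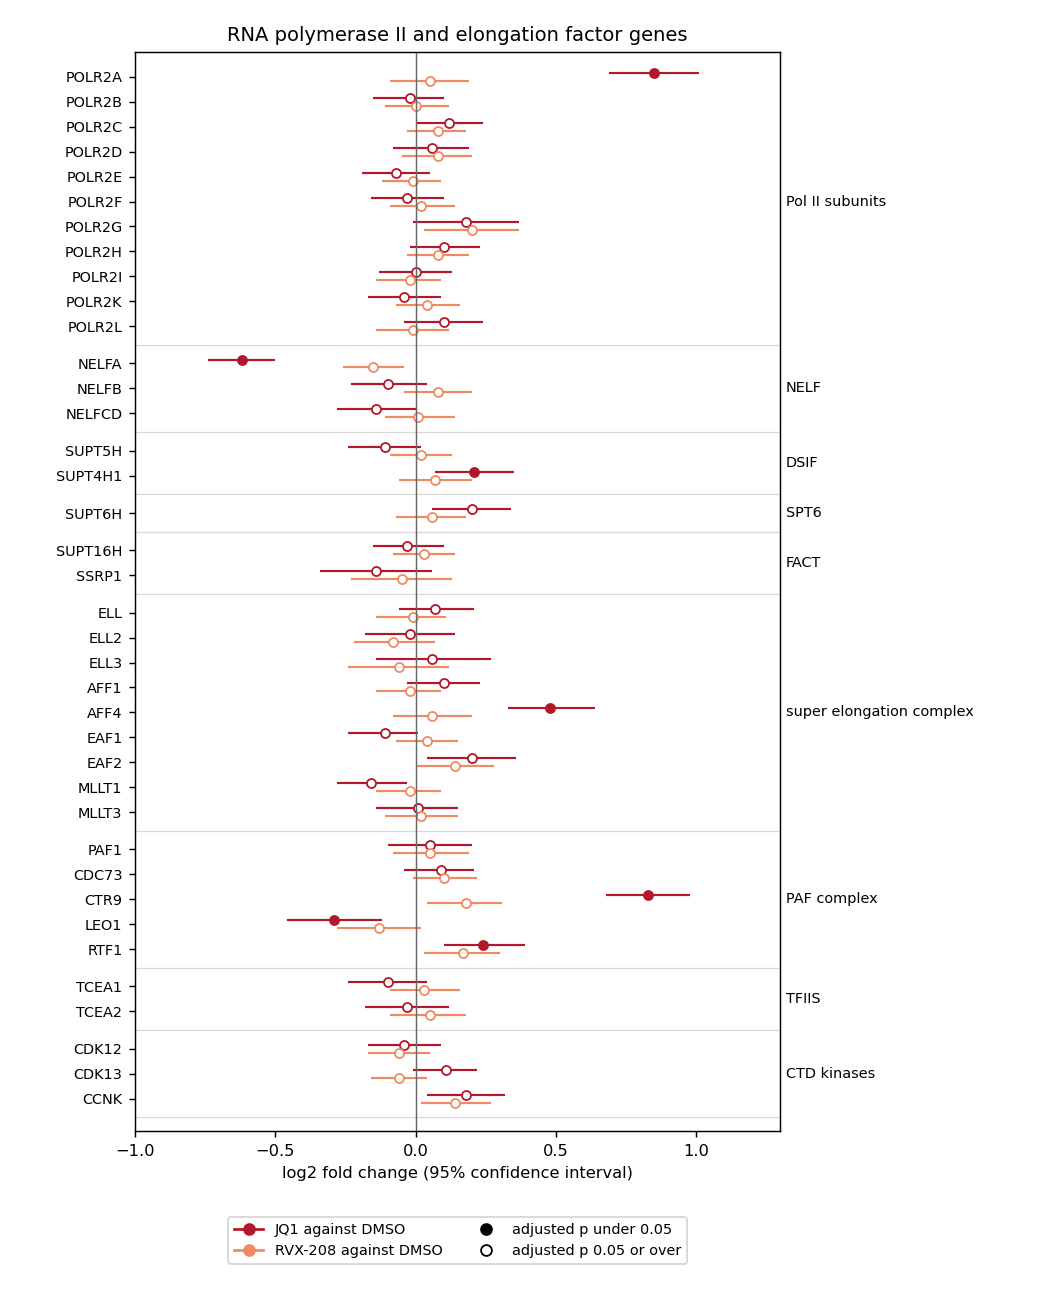
Log2 fold change against DMSO of the 38 measured members with 95% confidence intervals, grouped by complex, JQ1 above RVX-208 in each pair; filled points passed an adjusted p under 0.05. POLR2A (0.85), CTR9 (0.83), AFF4 (0.48) and NELFA (-0.62) stand apart with JQ1, while no RVX-208 point lies beyond -0.15 or 0.20. With housekeeping centring 15 of the 38 members were called lower with JQ1, as were 42.8% of all genes.

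Of the 11 polymerase subunits in the set, POLR2A, the largest subunit, which holds the catalytic centre and the heptad-repeat tail, was the one that passed with JQ1. It had log2 signals of 11.21 and 11.32 in JQ1 arrays, 10.55, 10.49 and 10.35 in RVX-208 arrays and 10.43, 10.41 and 10.40 in DMSO arrays. Both JQ1 arrays stood above all others, and the RVX-208 and DMSO arrays overlapped. The fold change was 1.80 (log2 0.85 ± 0.07 SE, n = 2 and 3, limma adjusted p = 1.154e-04).

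The second-largest subunit, POLR2B, which completes the active centre, stood at 10.88 and 11.00 in JQ1 arrays and at 10.99, 10.96 and 10.95 in DMSO arrays, and its log2 fold change was -0.02 with an interval of -0.15 to 0.10. The other 9 subunits of the set ran from -0.07 for POLR2E to 0.18 for POLR2G. POLR2E, POLR2F, POLR2H, POLR2K and POLR2L, which polymerases I and III share, ran from -0.07 to 0.10. POLR2C and POLR2I, of the polymerase II core, stood at 0.12 (interval 0.00 to 0.24) and -0.00 (interval -0.13 to 0.13), and POLR2D, which forms a stalk with POLR2G, stood at 0.06. POLR2G had an interval of -0.01 to 0.37, and passed without JQ1 replicate 1 (0.305, adjusted p = 0.0488), a fit that leaves 1 JQ1 array. POLR2J, a further core subunit that was not in the set and was counted with the other elongation factors, had 0.04 (interval -0.17 to 0.25).

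NELF holds the paused polymerase, and its subunit NELFA fell. NELFA stood at 8.76 and 8.70 in JQ1 arrays, 9.22, 9.19 and 9.17 in RVX-208 arrays and 9.38, 9.29 and 9.37 in DMSO arrays. The 3 groups did not overlap, with RVX-208 arrays between the others. With JQ1 the signal was 0.651 of that with DMSO (log2 -0.62 ± 0.05 SE, limma adjusted p = 1.476e-04). NELFB had -0.10 (interval -0.23 to 0.04) and NELFCD -0.14 (interval -0.28 to 0.00), neither past the threshold, although both JQ1 arrays lay below all DMSO arrays for each. The JQ1 arrays lay wholly below the DMSO arrays for 29.2% of all genes. NELFCD passed with a variance trend and robust fitting (limma adjusted p = 0.026), where 13.8% of all genes were lower. With housekeeping centring, where 42.8% were lower, NELFCD (0.00721) and NELFB (0.0207) passed. Against RVX-208, both were lower with JQ1 under a variance trend and robust fitting (limma adjusted p = 0.0242 and 0.0169), as were 10.0% of all genes.

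DSIF is a pair of proteins that pauses with NELF and later travels with the polymerase. SUPT4H1, its small subunit, had 10.97 and 10.93 in JQ1 arrays, 10.74, 10.81 and 10.89 in RVX-208 arrays and 10.77, 10.68 and 10.78 in DMSO arrays. The log2 fold change with JQ1 was 0.21 ± 0.06 SE (limma adjusted p = 0.0425), a small rise close to the threshold. It passed in 5 of 15 other settings. Omitting any 1 of the 3 DMSO arrays raised the adjusted p to 0.0652, 0.114 or 0.0610 in order of replicate, and omitting a JQ1 array raised it to 0.178 or 0.112. Omitting RVX-208 replicate 2 gave 0.0697. SUPT5H, the large subunit, stood at -0.11 (interval -0.24 to 0.02).

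SUPT6H, the histone chaperone that binds the elongating polymerase, had 0.20 with an interval of 0.06 to 0.34 and an adjusted p of 0.0514, just over the threshold in limma's test; it passed where dim genes were removed (0.0244) and with a variance trend and robust fitting (0.00410). FACT takes apart and rebuilds nucleosomes around the polymerase. Its subunit SUPT16H had -0.03 (interval -0.15 to 0.10). The probe set listed for SSRP1, the other subunit, was dim, at 4.70 to 5.02 over the 8 arrays where the lower quartile of all genes was 5.66, and gave -0.14 (interval -0.34 to 0.06).

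The super elongation complex brings P-TEFb to paused genes, and AFF4, its scaffold, rose. AFF4 had 10.59 and 10.64 in JQ1 arrays, 10.25, 10.13 and 10.19 in RVX-208 arrays and 10.18, 10.17 and 10.03 in DMSO arrays. Only the JQ1 arrays stood apart. The rise was 1.40-fold (log2 0.48 ± 0.07 SE, limma adjusted p = 0.00134). AFF1, the alternative scaffold, had 0.10 (interval -0.03 to 0.23).

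The other members of the complex did not pass. The elongation factors ELL and ELL3 had 0.07 and 0.06, and their partners EAF1 and EAF2 had -0.11 and 0.20. EAF2, at 7.53 and 7.45 in JQ1 arrays against 7.40, 7.28 and 7.20 in DMSO arrays, had a limma adjusted p of 0.0703. It passed without DMSO replicate 1 (0.254, limma adjusted p = 0.0274), with cyclic loess scaling (0.0409) and where dim genes were removed (0.0355). MLLT1 and MLLT3, the readers of acylated histones that can occupy the same place in the complex, had -0.16 and 0.01. MLLT1 had a limma adjusted p of 0.0799. It passed where dim genes were removed (0.0426), with a variance trend and robust fitting (0.0313) and with housekeeping centring (0.0061). The probe set annotated to ELL2 gave -0.02 (interval -0.18 to 0.14). Its neighbours in the array's numbering are genes of chromosome 1, while ELL2 lies on chromosome 5 and RefSeq lists the copy ELL2P1 on chromosome 1, so it is uncertain which of them it reports.

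**Figure D2:**
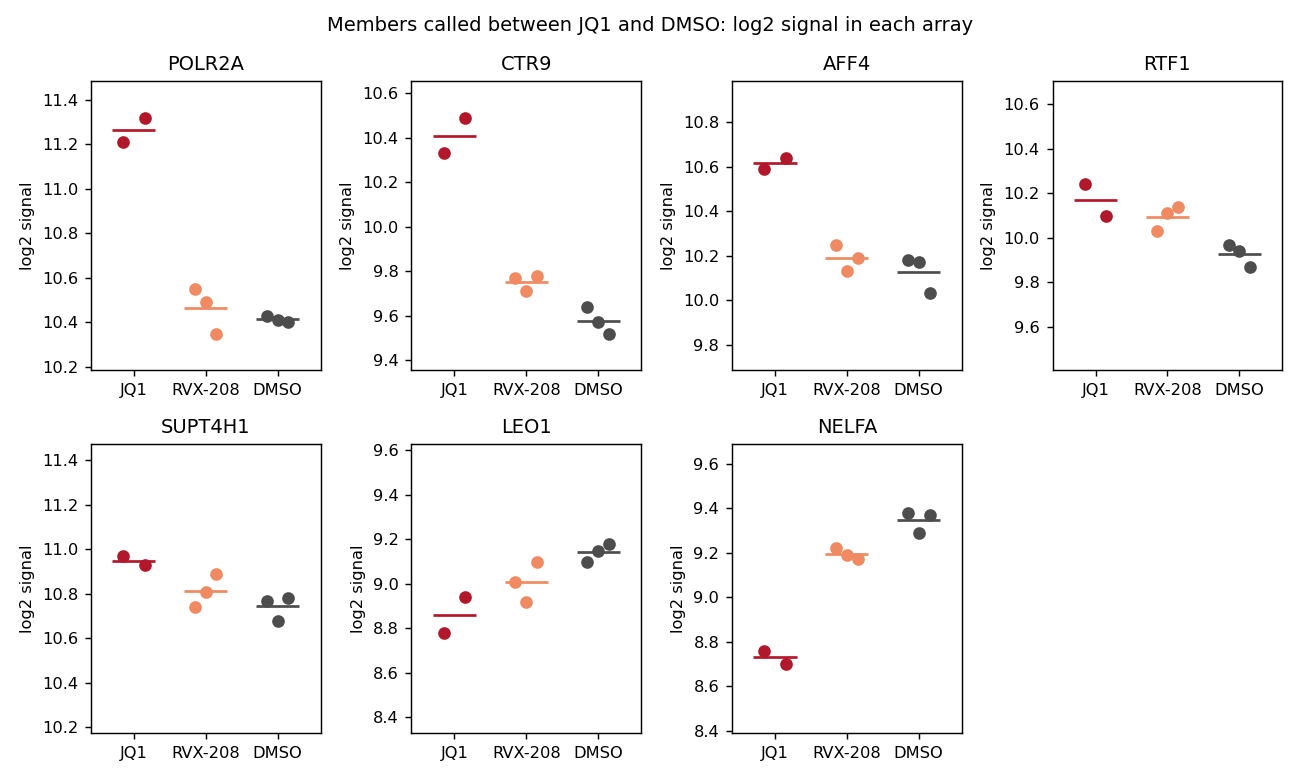
Log2 signal in each array for the 7 members called between JQ1 and DMSO, in the order JQ1, RVX-208, DMSO; each point is an array, each line a group mean, and every panel spans 1.3 log2 units. POLR2A, CTR9 and AFF4 are high in JQ1 arrays and NELFA is low, whereas RTF1, SUPT4H1 and LEO1 differ by 0.21 to 0.29; under housekeeping centring RTF1 and SUPT4H1 were no longer called.

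The PAF complex travels with the polymerase and supports histone modification, and its subunits moved in different directions. CTR9, the scaffold subunit, had 10.33 and 10.49 in JQ1 arrays, 9.77, 9.71 and 9.78 in RVX-208 arrays and 9.64, 9.57 and 9.52 in DMSO arrays. The 3 groups did not overlap. The rise was 1.78-fold with JQ1 (log2 0.83 ± 0.07 SE, limma adjusted p = 1.061e-04).

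RTF1, which recruits factors for histone ubiquitylation, had 10.24 and 10.10 in JQ1 arrays, 10.03, 10.11 and 10.14 in RVX-208 arrays and 9.97, 9.94 and 9.87 in DMSO arrays. JQ1 and RVX-208 arrays both lay above the DMSO arrays, and the log2 fold change with JQ1 was 0.24 ± 0.07 SE (limma adjusted p = 0.0277). LEO1 went the other way, with 8.78 and 8.94 in JQ1 arrays, 9.01, 8.92 and 9.10 in RVX-208 arrays and 9.10, 9.15 and 9.18 in DMSO arrays. It fell by 0.29 on the log2 scale (SE 0.07, limma adjusted p = 0.0238).

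Both calls were sensitive to single arrays. With DMSO replicate 2 left out, RTF1 had an adjusted p of 0.0603 and LEO1 of 0.0577. With DMSO replicate 3 left out the values were 0.0727 for RTF1 and 0.0638 for LEO1, and with JQ1 replicate 1 left out they were 0.178 and 0.161. PAF1 and CDC73, the remaining subunits of the set, had 0.05 (interval -0.10 to 0.20) and 0.09 (interval -0.04 to 0.21).

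For the TFIIS genes TCEA1 and TCEA2 the JQ1 and DMSO arrays overlapped, at -0.10 (interval -0.24 to 0.04) and -0.03 (interval -0.18 to 0.12). The kinases CDK12 and CDK13 had -0.04 (interval -0.17 to 0.09) and 0.11 (interval -0.01 to 0.22). Their cyclin, CCNK, had 10.01 and 10.08 in JQ1 arrays, 10.01, 10.02 and 9.98 in RVX-208 arrays and 9.78, 9.95 and 9.85 in DMSO arrays. Treated arrays of both kinds lay above the DMSO arrays, but the adjusted p of 0.0661 with JQ1 missed the threshold in limma's test. CCNK passed without DMSO replicate 2 (0.226, limma adjusted p = 0.0419), where dim genes were removed (0.0333) and with a variance trend and robust fitting (0.0151). JQ1 and DMSO arrays lay wholly apart for 23 of the 38 members (60.5%, against 50.4% of all genes), with JQ1 higher for 14 (21.3% of all genes) and lower for 9 (29.2% of all genes). The genes of the 7 changed members spanned 7 kb (SUPT4H1) to 88.2 kb (AFF4), and the median span was 30.6 kb for members and 24.8 kb for all genes.

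Within a complex the change of 1 subunit could be set against its partners in the same array, a difference that a constant shift of a whole array does not alter. The partners are those of the set, so POLR2J and the PAF subunit gene SKIC8 are not among them. Relative to the mean of the other 10 subunits, and with the DMSO mean at 0, POLR2A stood at 0.75 and 0.86 in JQ1 arrays, at 0.08, 0.04 and -0.11 in RVX-208 arrays and at -0.01, 0.01 and 0.00 in DMSO arrays. CTR9 against 4 PAF subunits stood at 0.74 and 0.88 with JQ1, 0.17, 0.12 and 0.11 with RVX-208 and 0.04, -0.02 and -0.02 with DMSO. NELFA against 2 NELF subunits stood at -0.49 and -0.51 with JQ1, -0.19, -0.16 and -0.24 with RVX-208 and -0.01, -0.03 and 0.04 with DMSO. The RVX-208 arrays thus lay outside the DMSO range for CTR9 and NELFA, on the side of the JQ1 arrays. AFF4 against 7 members of its complex, ELL2 left out, averaged 0.46 with JQ1 and 0.05 with RVX-208. These differences are given as values with no test. The genes shown were chosen for their JQ1 calls, so the differences with JQ1 largely restate those calls and give them no separate support. The differences with RVX-208 use the same 3 DMSO arrays, so the side on which they lie is not independent of that choice.

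**Figure D3:**
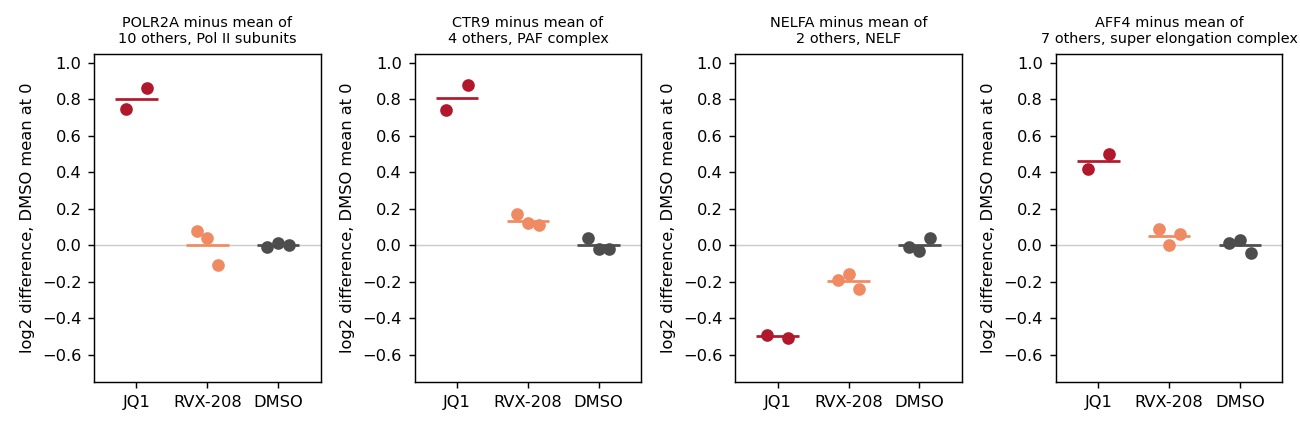
Difference in log2 signal between 1 subunit and the mean of the other measured members of its complex in the set (ELL2 left out), per array, with the mean of the DMSO arrays set to 0; points are arrays and lines group means. POLR2A, CTR9 and AFF4 gained on their partners with JQ1 (means 0.81, 0.81 and 0.46) and NELFA lost (-0.50). A constant shift of an array does not alter these values. The genes were chosen for their JQ1 calls, so the values largely restate those calls.

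With RVX-208 the members' log2 fold changes stayed between -0.15 (NELFA) and 0.20 (POLR2G), and 0 of 38 passed in limma's test, where 6.28% of all genes did (3.06% higher and 3.22% lower). This comparison uses the same 3 DMSO arrays as that of JQ1. At an unadjusted p under 0.05 there were 6 members, CCNK, CTR9, EAF2, POLR2G and RTF1 higher and NELFA lower, while 27.9% of all genes reached that level. With a variance trend and robust fitting, CTR9, RTF1 and NELFA passed.

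POLR2G, the stalk subunit, had 9.16, 9.01 and 9.16 in RVX-208 arrays against 8.94, 8.90 and 8.90 in DMSO arrays, a log2 difference of 0.20 ± 0.07 SE (limma adjusted p = 0.130). The groups did not overlap. CTR9 had 0.18 ± 0.06 SE (limma adjusted p = 0.104), RTF1 0.17 ± 0.06 (0.112) and NELFA -0.15 ± 0.05 (0.0917). POLR2A had 0.05 with an interval of -0.09 to 0.19, and AFF4 0.06 with an interval of -0.08 to 0.20. For each of the 38 members the interval lay within 0.4 of 0. RVX-208 and DMSO arrays lay wholly apart for 11 members (28.9%, against 34.1% of all genes), with RVX-208 higher for 8 (15.6% of all genes) and lower for 3 (18.5%). The members' median was 0.030, against -0.023 over all genes; housekeeping centring moved these to -0.069 and -0.122, and put POLR2A at -0.05 and AFF4 at -0.04.

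JQ1 and RVX-208 arrays share no samples and could be set against each other, although the doses differed (500 and 5000 nM). POLR2A was higher with JQ1 by 0.80 ± 0.07 (limma adjusted p = 4.603e-04), CTR9 by 0.65 ± 0.07 (8.819e-04) and AFF4 by 0.42 ± 0.07 (0.00589), and NELFA was lower, at -0.47 ± 0.05 (0.00151). These 4 were 10.5% of members, and 10.9% of all genes passed (4.16% higher and 6.78% lower with JQ1). The arrays lay wholly apart for 20 members (52.6%, against 42.8% of all genes), with JQ1 higher for 11 (20.4% of all genes) and lower for 9 (22.4%). RTF1, LEO1 and SUPT4H1 did not pass in this comparison, with 0.08 (interval -0.07 to 0.23), -0.15 (interval -0.32 to 0.02) and 0.14 (interval 0.00 to 0.28). Of the members outside these 7, CDK13 came nearest, with 9.99 and 10.06 in JQ1 arrays and 9.87, 9.84 and 9.87 in RVX-208 arrays (0.17 ± 0.05, limma adjusted p = 0.0750).

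Other genes of transcription were grouped by function. With JQ1, 10.7% of all genes rose and 12.0% fell, and the list counts stand beside that background. Apart from POLR2M, genes whose JQ1 call was lost in another setting are counted in these lists but not named. With JQ1, 5 of 6 measured genes of P-TEFb and its 7SK inhibitor complex rose and 1 fell, led by HEXIM1 (1.49 ± 0.06) and CCNT1, the cyclin of P-TEFb (0.72 ± 0.07), with HEXIM2 at -0.83 ± 0.07. Of 8 general transcription factor genes 4 rose and 0 fell, the highest being GTF2B, which bridges promoter and polymerase (1.06 ± 0.05). TFIIH genes had 2 of 9 higher and 1 lower, with MNAT1, a partner of its kinase, at 0.39 ± 0.08. Other elongation factors had 3 of 13 higher and 2 lower, 1 of the lower being POLR2M, whose probe set has numbering neighbours on chromosome 17 while the gene lies on chromosome 15, so that its identity is uncertain. In this list were SKIC8, a further subunit of the human PAF complex, at 0.44 ± 0.07 and the histone methyltransferase gene DOT1L at -0.44 ± 0.06.

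Against the same 10.7% higher and 12.0% lower over all genes, genes for tail phosphatases and tail-binding proteins had 1 of 9 higher and 4 lower, the lowest being the phosphatase gene CTDSP1 (-0.78 ± 0.06) and RPRD1B (-0.48 ± 0.05). Integrator, which cleaves RNA at paused polymerase, had 0 of 14 higher and 4 lower, with INTS14 at -0.54 ± 0.05 and INTS3 at -0.42 ± 0.05. Cleavage and termination factors had 3 of 16 higher and 4 lower, with CSTF3 at 0.36 ± 0.05. The lists for the other polymerases hold subunits not shared with polymerase II, with factors that belong to them. The polymerase I list had 1 of 8 higher and 2 lower (POLR1B at -0.46 ± 0.06, POLR1G at -0.47 ± 0.07). Subunits that polymerases I and III share were counted in this list only, among them the 1 that rose. In the polymerase III list, which lacks them, 0 of 10 were higher and 6 lower (POLR3G at -0.83 ± 0.09, POLR3C at -0.35 ± 0.05). The genes named with values in these lists passed in all 15 other settings with JQ1. Housekeeping centring, under which 42.8% of all genes were lower and 5.22% higher, raised the counts of lower genes, to 9 for polymerase III, 4 for polymerase I, 8 for Integrator, 8 for cleavage and termination, 7 for tail phosphatases and binders, 4 for other elongation factors, 3 for TFIIH and 1 for general transcription factors. It left 3 higher for P-TEFb and 7SK, 3 for general transcription factors, 1 each for TFIIH, other elongation factors and cleavage and termination, and 0 for tail phosphatases and binders and for polymerase I.

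With RVX-208 fewer genes passed in these lists, as over all genes, where 3.06% rose and 3.22% fell. HEXIM1 rose by 0.48 ± 0.05 and passed in all 15 other settings, in a list with 3 of 6 higher and 0 lower, which became 1 and 1 under housekeeping centring. GTF2B rose by 0.36 ± 0.05 in a list with 2 of 8 higher and 0 lower, and lost its call without DMSO replicate 3 or RVX-208 replicate 3. TFIIH genes had 2 of 9 higher, which became 0 under cyclic loess or housekeeping centring. The remaining lists had at most 1 gene called in either direction, although housekeeping centring, with 19.1% of all genes lower, gave 3 lower for polymerase I and 3 for tail phosphatases and binders.

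**Figure D4:**
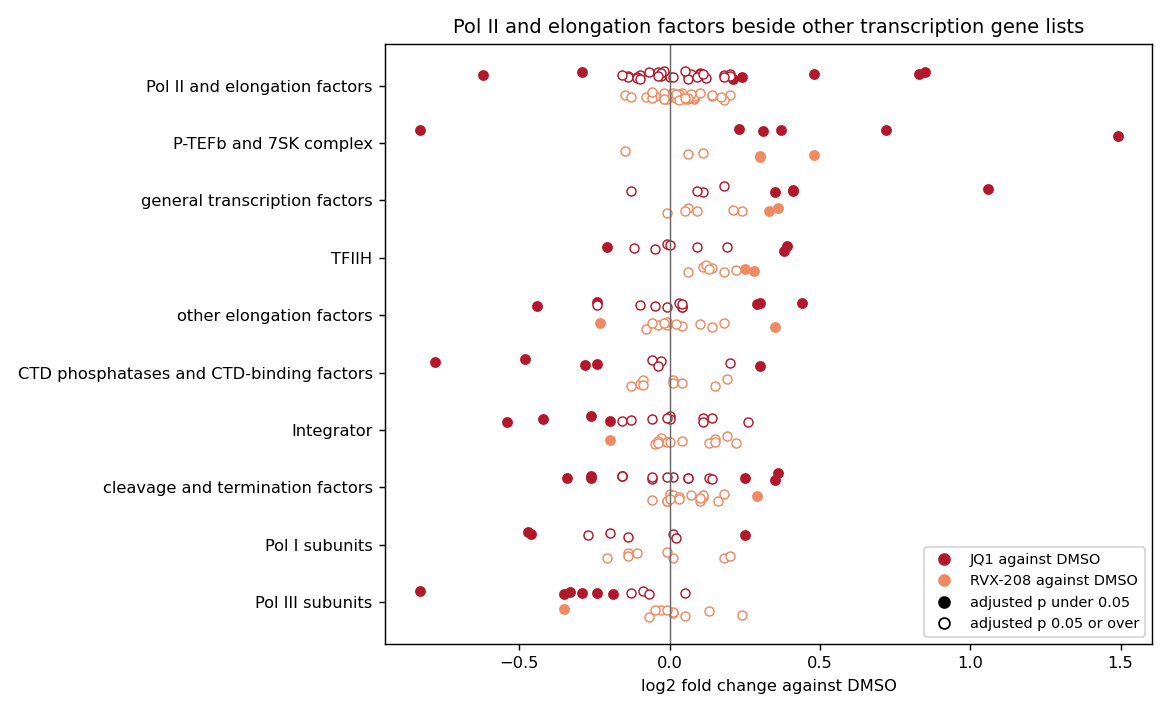
Log2 fold change against DMSO of each gene in the polymerase II and elongation set and in 9 other transcription lists, JQ1 above RVX-208 in each row; filled points passed an adjusted p under 0.05, and heights within a row are spread for legibility. HEXIM1 (1.49) and GTF2B (1.06) lie farthest right with JQ1. The polymerase III list, without subunits shared with polymerase I or II, has 6 of 10 genes lower, against 12.0% of all genes. Housekeeping centring shifted all genes towards lower values.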

How the data were processed

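Transcript levels were measured in HepG2 cells on 8 Affymetrix Human Gene 1.0 ST arrays (2 JQ1, 3 RVX-208, 3 DMSO). The deposited table holds log2 values of 19816 probe sets, made by the authors with RMA in R 2.15.3, per the submitters' processing notes; quantile normalisation in RMA removes any overall shift between arrays. The table of the authors' fit holds log2 fold changes, an F score and p-values with adjusted p-values, per the file headers, and was deposited with limma 3.14.4 named in the processing notes. Its log2 fold changes equalled group differences of the deposited values within 1e-04 for 19815 probe sets with JQ1 and 19816 with RVX-208.

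Probe sets with 1 gene (17859) were kept; those with several (997) or none (960) were not. For 14 genes with over 1 probe set the brightest was used, which left 17845 genes. A linear model with a mean per group was fitted over all 8 arrays with limma 3.58.1 in R 4.3.3 (lmFit, eBayes, 8.55 degrees of freedom). Tests were two-sided with Benjamini-Hochberg adjustment over all genes at 0.05, and were tested on simulated data. Tables and plots used Python 3.11.15. Signals carry no counts, and dim probe sets have compressed fold changes.

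The members and lists were chosen with earlier results of these data known. All members are accounted for; members called against DMSO are given in every array, and of other lists at most the 2 highest and 2 lowest called genes are named. The alternatives were cyclic loess, housekeeping centring, variance trend with robust fitting, only the 2 groups compared, a replicate block, a minimum mean log2 value of 6, all probe sets, and leaving out each array.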

Additional observations from a re-analysis of the deposited data

How the results depend on the processing

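Under all 15 alternatives POLR2A (0.683 to 0.904), CTR9 (0.666 to 0.912), AFF4 (0.319 to 0.511) and NELFA (-0.784 to -0.590) kept their call and direction for JQ1 against DMSO, and also for JQ1 against RVX-208. LEO1 passed in 11 of 15, RTF1 in 9 and SUPT4H1 in 5. Against 5 members higher and 2 lower with JQ1, housekeeping centring gave 3 higher and 15 lower (5.22% and 42.8% of all genes), and variance trend with robust fitting 8 and 4 (13.5% and 13.8%). Fitting only the 2 groups compared gave 3 higher and 2 lower (8.56% and 9.34% of all genes). Removing genes under a mean log2 value of 6 gave 8 higher and 3 lower (17.6% and 19.6% of the genes kept), with fewer genes tested. Leaving out 1 DMSO or RVX-208 array gave 3 to 5 higher and 1 to 2 lower (8.36% to 10.0% and 9.58% to 11.2% of all genes). Deviations of arrays with the same replicate number correlated at -0.150 to 0.076, so the numbers were not taken as pairs. The replicate block gave 3 higher and 1 lower (7.9% and 9.23% of all genes). Under it LEO1 (limma adjusted p = 0.0704), RTF1 (0.0831) and SUPT4H1 (0.0551) were lost, and the block changed no other call of a member. Among the calls of other lists named above, the block lost GTF2B with RVX-208, and GUSB and POLR2M with JQ1. MNAT1, DOT1L, SKIC8, INTS3, CSTF3 and POLR3G, named above for JQ1, also lost their calls with RVX-208 under it. With RVX-208 the block left 0.241% of all genes higher and 0.207% lower. For RVX-208 against DMSO, where 0 members passed, housekeeping centring gave 2 lower (19.1% of all genes), and variance trend with robust fitting 2 higher and 1 lower (7.35% and 5.86%). For JQ1 against RVX-208, with 3 higher and 1 lower, variance trend with robust fitting gave 4 higher and 4 lower (6.34% and 10.0% of all genes). Cyclic loess and the filter on dim genes also gave 4 higher (5.14% of all genes and 8.15% of the genes kept), with CDK13 added in each. Members' medians moved to -0.137, -0.069 and -0.074 with housekeeping centring. The causes were not tested. No called value changed its sign. The SSRP1 signal lay under the lower quartile of all genes, where folds are compressed.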
